A study of Homo sapiens with 2 samples.

Results

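NRF2 (gene NFE2L2) and the antioxidant defence genes around it were followed in human glioblastoma cultures that the labels call LN229, an established line, of which 1 overexpressed the microRNA miR-127-3p. The genes were chosen by name, by a rule that uses no measured value but was written with earlier results of these data known. Of 50 named genes, 48 had at least 1 probe set annotated to that gene alone, among 19775 genes named in this way on the array. A pSUPER.neo plasmid driving miR-127-3p was carried by the first culture and pSUPER.neo without it by the control, and both cultures were grown in DMEM with serum. Total RNA of each was measured on 1 Affymetrix expression array, so there are 2 arrays, no replicate and no test, and each value below compares these arrays only. The question of the study was which genes miR-127-3p regulates in a glioblastoma line. Whether each culture was a single clone is not given in the labels.

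NRF2 is a transcription factor that the adaptor protein KEAP1 normally holds for degradation. Oxidants and electrophiles modify KEAP1, NRF2 then accumulates, and it binds antioxidant response elements in its target genes together with small MAF proteins. Its targets make glutathione and NADPH, reduce thioredoxin, detoxify quinones and aldehydes and pump conjugates out of the cell. Peroxidases, peroxiredoxins, superoxide dismutases and catalase remove the oxidants themselves, and only some of them are NRF2 targets.

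The overexpressed microRNA is shown first because it is the only difference between the cultures that the labels give. Its mature form comes from chr14:100883035-100883056 on the plus strand (RefSeq, GRCh38.p14), and the capitals mark the seed, bases 2 to 8, which pairs with target transcripts:
miR-127-3p: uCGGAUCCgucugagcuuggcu
Its own level was not measured on the arrays as used here, and seed matches in the members' transcripts were not analysed here.

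The promoters below are shown because they carry the core of the antioxidant response element in members that differed in opposite directions. The core was searched as TGACNNNGC on both strands of the 300 bases from 250 before to 50 after each RefSeq start (GRCh38.p14), and 40 of the 50 members had a promoter in that table. Each line runs 5′ to 3′ on the strand of the match, with the match in capitals and 20 bases on each side:
GPX2 (chr14:64942839-64942887, plus strand): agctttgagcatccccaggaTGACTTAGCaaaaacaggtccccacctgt
GSTA4 (chr6:52995265-52995313, minus strand): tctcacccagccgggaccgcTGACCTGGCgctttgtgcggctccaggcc
ME1 (chr6:83431160-83431208, minus strand): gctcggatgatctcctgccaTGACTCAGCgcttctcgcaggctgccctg
PGD (chr1:10398843-10398891, minus strand): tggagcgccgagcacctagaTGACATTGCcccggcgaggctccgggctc
GCLM (chr1:93909436-93909484, plus strand): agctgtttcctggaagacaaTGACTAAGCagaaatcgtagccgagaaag
TXNRD1 (chr12:104215660-104215708, plus strand): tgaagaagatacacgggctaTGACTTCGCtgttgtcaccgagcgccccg
The match shown began 122 bases upstream of the start in GPX2, 9 in GSTA4, 137 in ME1, 201 in PGD, 34 in GCLM and 99 in TXNRD1. The ME1 match contains TGACTCA, the site bound by AP-1 factors, so the motifs overlap there. Of the 40 members, 10 held the core in at least 1 promoter (25.0%), against 16.1% of all 27305 genes in the table. A looser form, TGANNNNGC, was held by 27 of the 40 members (67.5%) and by 47.1% of all genes. A match is a run of letters in this window, and nothing was measured about binding.

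Signals are in arbitrary units on a linear scale, and the array medians were 83.3 (miR-127-3p) and 93.9 (control). A log2 ratio is the log2 value of the miR-127-3p array minus that of the control array, after subtraction of the median over all genes, and a gene is represented by its brightest probe set. The subtraction itself sets the median over all genes to 0.00 and puts 50.0% of them above 0. Where a pair of signals is given, the miR-127-3p array comes first. A gene entered if its mean log2 signal was above the median of all probe sets, which corresponds to a signal of about 83.0. Of the 48 members, 47 entered, and ABCC2, a hepatic efflux pump, did not, with signals of 29.7 and 73.4, both below their array's median. PRDX5, a peroxiredoxin, and AKR1B1, an aldose reductase, had no probe set annotated to them alone and are not analysed here. Log2 ratios of the brightest and next brightest probe sets of 1 gene differed with a spread of 0.41 (SD per probe set, from 5974 pairs). This spread measures how far such probe sets differ for any reason, and it holds no variation between cultures.

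The antioxidant genes as a whole were centred where all genes were, and a few of them stood far out. Their median log2 ratio was 0.02, against 0.00 over all 11985 genes that entered. Past 2-fold on the higher side were 3 of 47 members (6.38%), AKR1B10, ABCC3 and GPX8, where the background over all genes was 5.06%. At least 2-fold lower were 5 members (10.6%), GPX2, MGST2, GSTT1, PRDX3 and GSTA4, where the background was 8.67%. Both shares are near the background and are no result about the members as a set. Beyond the probe set spread of 0.41, 12 members were higher (25.5%, background 22.8%) and 8 were lower (17.0%, background 25.0%). Several probe sets were above the filter for 26 members, and 20 of these had all of them on the same side of 0.

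**Figure D1:**
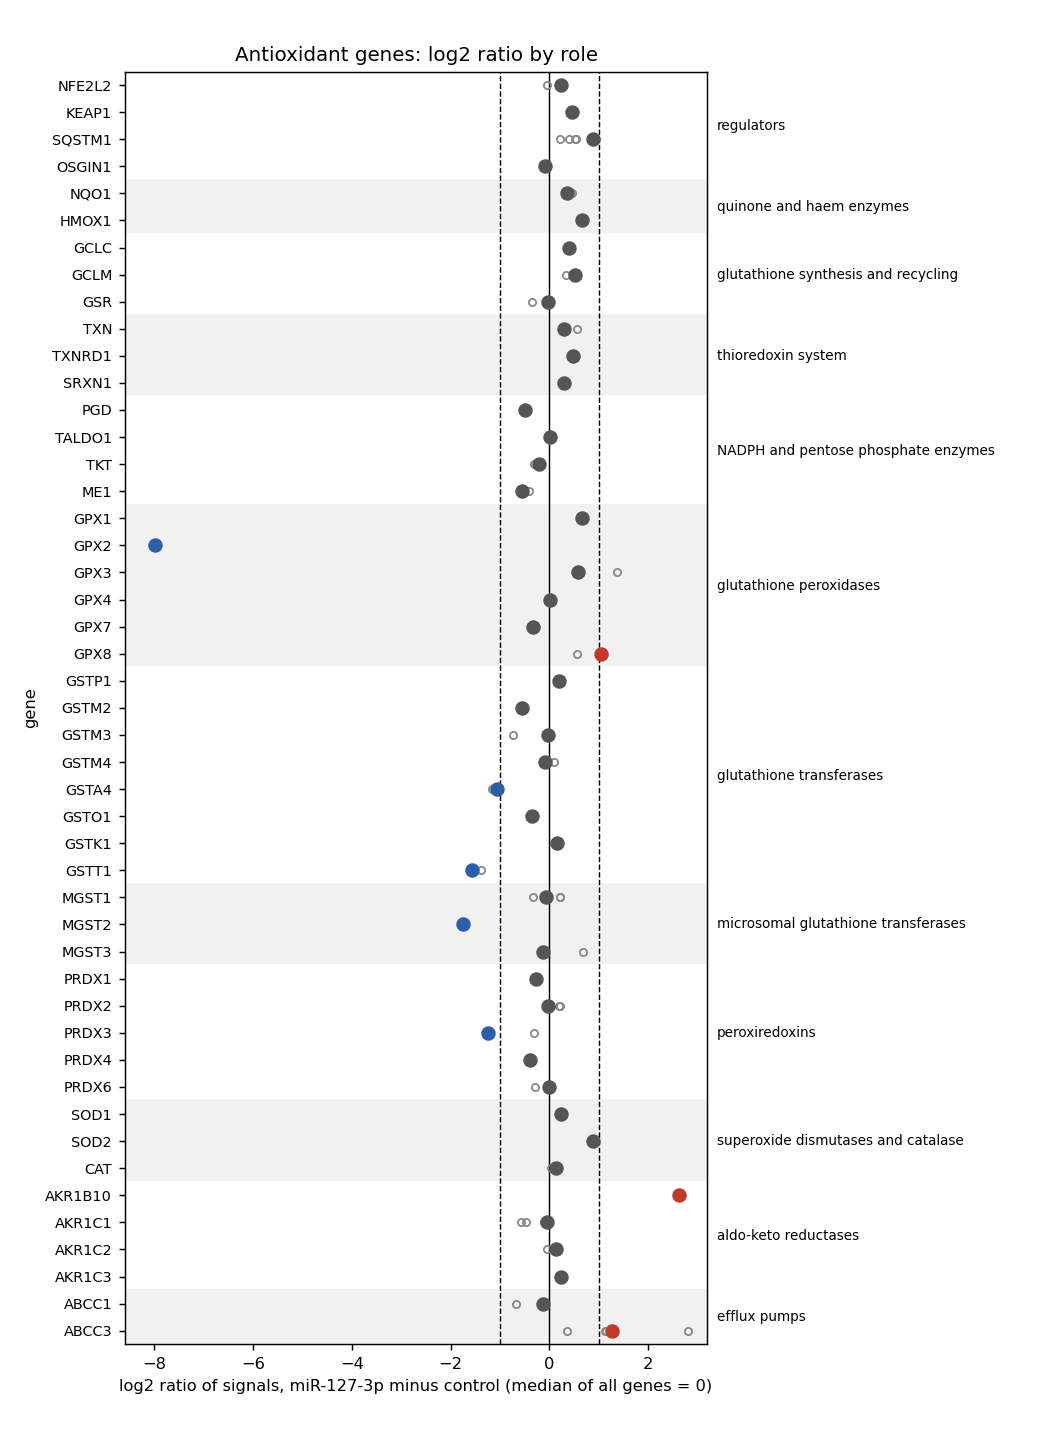
Log2 ratio of signals (miR-127-3p minus control, x axis) of the 47 members above the filter, grouped by role. Large points are the brightest probe set of a gene, red where at least 2-fold higher, blue where at least 2-fold lower and grey otherwise; open circles are its other probe sets above the filter, and dashed lines mark 2-fold. Most genes lie between the dashed lines, and GPX2, at -8.00, lies far to the left.

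**Figure D2:**
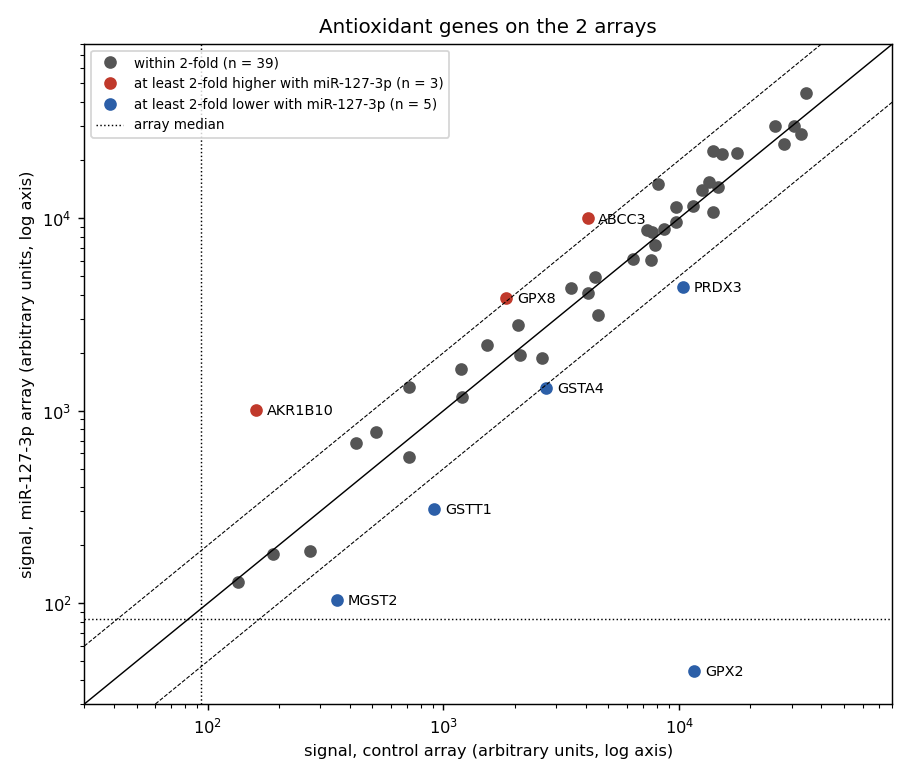
Signal of the same 47 genes on the control array (x axis) and on the miR-127-3p array (y axis), both on log axes in arbitrary units; the solid line marks equal signals, the dashed lines a 2-fold difference of uncentred signals and the dotted lines each array's median. GPX2 alone lies below the median of the miR-127-3p array, and AKR1B10 lies highest above the line of equal signals.

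Neither the sensor nor its factor differed by 2-fold. NFE2L2, the factor itself, had a signal of 8654 on the miR-127-3p array against 7311 on the control array, a log2 ratio of 0.23. A second, dimmer probe set of it was at -0.05, so its probe sets lay on both sides of 0 and within the probe set spread. Outside the rule, a probe set annotated to both NFE2L2 and CSNK2A1, a kinase subunit, was at -0.35, with 953 and 1206. KEAP1, the inhibitor of NRF2, gave 1650 and 1184, a log2 ratio of 0.47 at its single probe set, above the probe set spread of 0.41. SQSTM1, the autophagy adaptor p62, which sequesters KEAP1 and is itself an NRF2 target, gave 15089 and 8153, a log2 ratio of 0.88. All 5 probe sets of SQSTM1 were above 0, from 0.22 to 0.88, and none reached 2-fold. The value of 0.88 came from a probe set with a suffix for possible cross-matching, and the brightest without one was at 0.22. OSGIN1, a stress-induced growth inhibitor, was close to the array medians, with 129 and 135 and a ratio of -0.08.

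Of the 8 members that make or recycle glutathione, run the thioredoxin system or act on quinones and haem, none differed by 2-fold, and all but GSR were slightly higher with miR-127-3p. NQO1, a quinone reductase widely used as a readout of NRF2, read 44556 on the miR-127-3p array against 34298 on the control array, a log2 ratio of 0.37. Its 3 probe sets lay closely together, from 0.37 to 0.47, and all of them carry a suffix for possible cross-matching. HMOX1, haem oxygenase, which degrades haem and is induced by many stresses, gave 677 and 424, a log2 ratio of 0.66.

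GCLC and GCLM are the catalytic and modifier subunits of the enzyme that sets the rate of glutathione synthesis. GCLC read 2780 on the miR-127-3p array against 2076 on the control array, a log2 ratio of 0.41, and 0.44 at its second probe set above the filter. GCLM gave 2198 and 1526, a log2 ratio of 0.51, with 3 probe sets from 0.34 to 0.51. Both subunits were therefore brighter on the miR-127-3p array at every probe set above the filter, although another, dim probe set of GCLC, below the filter, gave 58.5 and 106. GSR, which regenerates glutathione from its oxidised form, gave 1183 and 1194, a log2 ratio of -0.02, and -0.34 at its other probe set.

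TXNRD1, thioredoxin reductase, read 21434 on the miR-127-3p array against 15159 on the control array, a log2 ratio of 0.49. TXN, thioredoxin, its substrate, gave 21818 and 17489, a log2 ratio of 0.31, and 0.56 at a dimmer probe set. SRXN1, sulfiredoxin, which repairs overoxidised peroxiredoxins, gave 4331 and 3476, a log2 ratio of 0.31. These groups were joined after their values were seen: of their 8 genes, 7 were above 0 and GSR was below, though GSR was at 0.06 with each array's 75th percentile as centre. Their median was 0.39, where the centring puts 50.0% of all genes above 0 with a median of 0.00. The differences of NQO1, TXN and SRXN1 were smaller than the probe set spread of 0.41, and that of GCLC was about equal to it. The 8 genes had a median between 0.34 and 0.50 under the 11 other processing settings, 1 of which, without cross-match suffixes, left NQO1 out. Those settings reuse the same arrays and the same joined group, so the range shows only how far processing moved the median. The wider list of other glutathione and thioredoxin genes did not share this: 9 of its 20 genes above the filter were above 0 and 11 below, with a median of -0.02. In it GSS, glutathione synthetase, was at -0.15, and GLRX, a glutaredoxin, was at -0.52, with -0.02 at its second probe set. TXN2, the mitochondrial thioredoxin, was at -0.01, with 0.64 at its second probe set. On the higher side, TXNRD2, another thioredoxin reductase, was at 0.70 and GLRX2, another glutaredoxin, at 0.29.

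The 4 members grouped as NADPH and pentose phosphate enzymes were level or slightly dimmer. NADPH is the reducing power that glutathione and thioredoxin use. PGD, a dehydrogenase of the oxidative pentose phosphate pathway, read 1867 on the miR-127-3p array against 2605 on the control array, a log2 ratio of -0.49. ME1, the cytosolic malic enzyme, gave 3120 and 4516, a log2 ratio of -0.55, and -0.40 at a second probe set. TKT, transketolase, gave 24272 and 27694, a log2 ratio of -0.20, with 3 probe sets from -0.32 to -0.20. TALDO1, transaldolase, was level, with 11597 and 11378 and a ratio of 0.02. None of the 4 reached 2-fold, and TKT and TALDO1 lay within the probe set spread. Below 0 were 3 of the 4, where the centring puts 50.0% of all genes above 0. In the wider list of redox repair and NADPH genes 7 were above 0 and 8 below, with ME2 at 0.36, H6PD at -0.82 and IDH2 at -0.70. Counted in other lists, the NADPH enzymes IDH1 and NNT were at 0.50 and 0.60. PGD and ME1 held the response element core in their promoters, as did GCLM and TXNRD1, which were on the other side of 0. Over the 10 members with the core, all above the filter, 4 were above 0 and 6 below, and their ratios ran from -8.00 in GPX2 to 0.51 in GCLM. Of the 27 members above the filter whose promoters lacked it, 16 were above 0. Over all genes 50.0% were above 0 by the centring, and no difference between members with and without the core is read from these counts.

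Glutathione peroxidases, which reduce peroxides with glutathione, held the greatest difference of all members. GPX2, the peroxidase of gut epithelium and an NRF2 target, read 44.6 on the miR-127-3p array against 11542 on the control array. The signal on the miR-127-3p array was below that array's median, so only a limit can be given: GPX2 was at least 138-fold lower against that median. A second probe set, below the filter, gave 36.6 and 123 and lay on the same side. The measured log2 ratio of -8.00 depends on the dim signal and on the pseudocount of 1.

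Epithelial markers differed between the same arrays as GPX2. Of 16 such markers with a probe set, 14 were brighter in the control, and their signals summed to 7890 on the miR-127-3p array against 88644 on the control array. KRT19, a keratin of simple epithelia, gave 5.64 and 12674, EPCAM, an adhesion molecule, 30.2 and 9181, and VIL1, a protein of the intestinal brush border, 45.4 and 1847. The keratin KRT18 gave 6906 and 44863, most of the sum on the miR-127-3p array, and KRT7 was 1.66-fold lower. KRT20, CLDN3, CLDN7 and CDX2, counted as brighter in the control, were below the median on each array. Brighter with miR-127-3p were KRT5 (88.3 and 4.52) and GRHL2 (39.8 and 16.1). No marker was at exactly 0, but 12 of the 16 were below the array median with miR-127-3p and 6 of 16 in the control. Of 16 markers of glial and glioblastoma cells, 10 were brighter in the control, and the sums were 91145 (miR-127-3p) and 86798 (control). Among these, GFAP, an astrocyte filament, gave 14.9 and 34.2 and OLIG1 gave 15.9 and 36.6, below the median on each array, while VIM, vimentin, gave 48866 and 45584. Past 2-fold, the neural stem cell factor SOX2 (1656 and 3893), SOX9 (1616 and 4981) and the filament gene NES (893 and 1804) were lower, while the receptor EGFR (2472 and 618) and SLC1A3, a glial glutamate transporter (2689 and 73.9), were higher. Of 6 markers of blood and endothelial cells, 4 were brighter with miR-127-3p, with sums of 503 and 467. The part of these markers in the values of GPX2 and the other members was not tested. LN229 is the name the labels give to each culture, and the identity of the cells was not tested. Any other difference between the cultures and an effect of the microRNA cannot be told apart in the ratios given here. In bulk RNA, fewer cells of a type and less RNA per cell cannot be told apart.

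The other peroxidases differed far less than GPX2. GPX8, a peroxidase of the endoplasmic reticulum, read 3865 on the miR-127-3p array against 1844 on the control array and was 2.08-fold higher. Its second probe set, with 546 and 369, was at 0.55, so the 2-fold call rests on the brighter probe set, and the mean of both was 0.80. GPX1, the abundant cytosolic peroxidase, gave 22158 and 13825, a log2 ratio of 0.67. GPX3, the secreted form, gave 778 and 518, a log2 ratio of 0.57, and its other probe set was at 1.38, with 465 and 176. GPX4, which reduces lipid hydroperoxides and protects against ferroptosis, was level, with 8811 and 8628 and a ratio of 0.02. GPX7, a relative of GPX8 in the same compartment, gave 577 and 717, a ratio of -0.32, so these relatives were on opposite sides of 0.

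Glutathione transferases, which attach glutathione to electrophiles, included 3 members at least 2-fold dimmer with miR-127-3p and several that were level. Of the 11 soluble and microsomal members, 3 were at least 2-fold lower (background 8.67%), none was higher by that much (background 5.06%) and 7 lay within the probe set spread. Below 0 were 9, where the centring puts 50.0% of all genes above 0. With each array's 75th percentile as centre, or with the mean of all probe sets, 6 were below 0. In the wider lists the transferases GSTA1, GSTT2 and GSTZ1 were at 0.58, 0.31 and 0.14. GSTM1 was at 0.19, with -0.30 at a dimmer probe set, and GSTO2 was at least 20.8-fold lower. GSTT1, a theta class enzyme, read 310 on the miR-127-3p array against 911 on the control array and was 2.96-fold lower. Its second probe set gave 71.2 and 186, on the same side. GSTA4, which conjugates the lipid peroxidation product 4-hydroxynonenal, gave 1317 and 2723 and was 2.08-fold lower, and a second probe set was 2.23-fold lower with 433 and 962. With the 75th percentile as centre GSTA4 was at -0.98, just inside 2-fold. MGST2, a microsomal enzyme, gave 105 and 353 and was 3.38-fold lower at its single probe set, with the miR-127-3p signal close to the array median.

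Among the remaining transferases, GSTM2, a mu class enzyme, gave 187 and 272, a log2 ratio of -0.55. GSTM3 was at -0.02 at its bright probe set and at -0.73 at a dim one, and GSTM4 was at -0.08. The mu class genes are close in sequence. The probe sets of GSTM2 and GSTM4 and the bright probe set of GSTM3 carry a suffix for possible cross-matching. This leaves the contribution of each gene uncertain. The dim probe set of GSTM3, at -0.73, carries no such suffix. GSTO1, an omega class enzyme, gave 6017 and 7574, a log2 ratio of -0.34, and -0.37 at a second probe set. GSTP1, the pi class enzyme abundant in many tumours, gave 15441 and 13341, a ratio of 0.20, and GSTK1, of the kappa class, was at 0.16. MGST1 and MGST3, both microsomal, were at -0.07 and -0.13, with probe sets on both sides of 0.

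Peroxiredoxins, most of which reduce hydrogen peroxide with thioredoxin, were below or near 0. PRDX3, the mitochondrial member, read 4400 on the miR-127-3p array against 10362 on the control array and was 2.37-fold lower. A dim second probe set of PRDX3 gave 113 and 140, a log2 ratio of -0.32, so the size of this difference depended on the probe set, and the mean of both was -0.78. PRDX4, of the endoplasmic reticulum, gave 10704 and 13836, a ratio of -0.38, and PRDX1, a cytosolic NRF2 target, gave 27224 and 32645, a ratio of -0.27. PRDX2 and PRDX6 were at -0.04 and -0.01, with other probe sets up to 0.22 for PRDX2 and down to -0.30 for PRDX6. None of the 5 measured members was above 0 at its brightest probe set, though PRDX2 and PRDX6 were at 0.05 and 0.07 with the 75th percentile as centre, and only PRDX3 differed by more than the probe set spread.

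Superoxide dismutases and catalase were on the other side of 0, SOD1 and CAT by less than the probe set spread. SOD2, the mitochondrial manganese enzyme, read 1323 on the miR-127-3p array against 713 on the control array, a log2 ratio of 0.88. Outside the rule, 4 further probe sets are annotated to SOD2 together with the transcript SOD2-OT1, and the brightest of them gave 2137 and 925, a log2 ratio of 1.20. The others were at 1.16, 0.33 and -0.07, the last of them below the filter. SOD1, the cytosolic copper and zinc enzyme, gave 29982 and 25383, a ratio of 0.23, and CAT, catalase, gave 8438 and 7646, a ratio of 0.13. The mitochondrial SOD2 and PRDX3 thus lay on opposite sides of 0.

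Aldo-keto reductases, which reduce carbonyl compounds, held the highest ratio of the members. AKR1B10, a retinal and aldehyde reductase and NRF2 target, read 1010 on the miR-127-3p array against 161 on the control array and was 6.20-fold higher. Both signals were above their array's median, but the single probe set carries a cross-match suffix. AKR1C1, AKR1C2 and AKR1C3, also NRF2 targets, were level between the arrays at their brightest probe sets. AKR1C1 gave 29927 and 30610, a log2 ratio of -0.04, AKR1C2 gave 13906 and 12509, a ratio of 0.14, and AKR1C3 gave 11471 and 9641, a ratio of 0.24. The AKR1C genes are close in sequence and the brightest probe sets of AKR1C1 and AKR1C2 carry a cross-match suffix, so their shares cannot be told apart. At 2 dimmer probe sets AKR1C1 was at -0.56 and -0.48, both beyond the probe set spread. The probe set at -0.56 was the only one of AKR1C1 above the filter without a suffix. Outside the rule, a probe set annotated to both AKR1C1 and AKR1C2 was at -0.26, with 402 and 478.

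Efflux pumps export glutathione and glucuronide conjugates. ABCC3, an NRF2 target in several tissues, read 9954 on the miR-127-3p array against 4080 on the control array and was 2.42-fold higher. All 5 of its probe sets were above 0, from 0.37 to 2.82, and the highest ratio came from a probe set with a dim control signal of 43.0 against 312. ABCC1 gave 1936 and 2109, a log2 ratio of -0.14, and -0.67 at a dimmer probe set.

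Other genes of the pathway were counted from lists of 88 genes chosen by role, of which 82 had a probe set and 65 entered. None was past 2-fold on the higher side (background 5.06%) and 8 were lower (12.3%, background 8.67%). The median was -0.02. Of 9 partners and regulators of NRF2 none passed 2-fold at its brightest probe set. NFE2L1, a relative of NRF2, was the highest at 0.97, with 3 probe sets from 0.49 to 0.97. NFE2L3, another relative, was the lowest at -0.73, and its dimmer second probe set was past 2-fold at -1.11. BACH1, a repressor of NRF2 targets, was at 0.22 and MAFG, a small MAF partner, at -0.21. Of 20 further reported NRF2 targets 11 were above 0, and only PIR, pirin, at -1.18 and GCNT1, a glycosyltransferase, at -1.18 passed 2-fold. A second probe set of GCNT1 was at -0.45, so that call rests on 1 of its 2 probe sets.

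Genes outside the NRF2 lists included the lowest values of the wider set. GSTO2, an omega class transferase, read 7.02 on the miR-127-3p array against 1740 on the control array and was at least 20.8-fold lower. CYBA, the p22phox subunit of NADPH oxidases, which make superoxide, gave 49.3 and 1838 and was at least 22.0-fold lower, and it was the only 1 of 8 NADPH oxidase genes that entered. SESN3, a sestrin, gave 265 and 1952 and was 7.41-fold lower, with its 2 probe sets above the filter at -2.89 and -2.36. ME3, a mitochondrial malic enzyme, was at least 3.35-fold lower. OPLAH, which recycles oxoproline of the glutathione cycle, and GLRX5, a mitochondrial glutaredoxin, were 2.41-fold and 2.16-fold lower. The part of the epithelial markers in these values was not tested either.

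**Figure D3:**
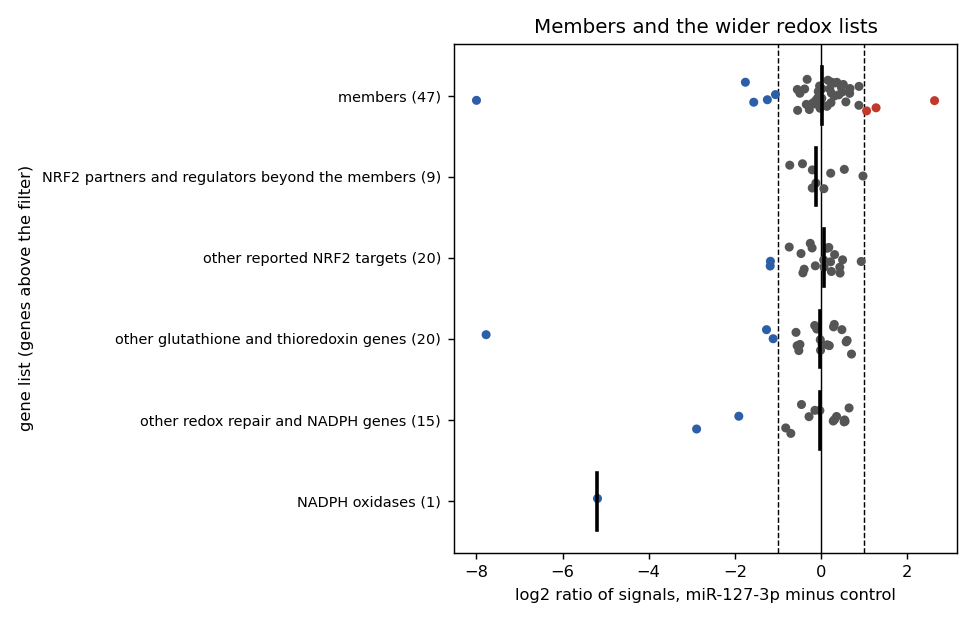
Log2 ratio (miR-127-3p minus control, x axis) of members and of 5 wider redox lists, with the number of genes above the filter in brackets; each point is a gene, red or blue where at least 2-fold higher or lower, vertical bars are medians and points are spread vertically only to be seen. Red points occur among the members alone, and the blue points furthest left are GPX2, GSTO2 and CYBA.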

How the data were processed

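The deposited values are linear signal intensities, 1 per probe set and array; all 54675 values per array were above 0, and the mean after trimming 2% at each end was 500.1 on each, so they share a scale, judged from the values. RNA was labelled with an Affymetrix 3′ kit, per the labels' protocols. Not given in the sources used here are the summarising software and any correction of background. Symbols came from the platform annotation, checked by Entrez identifier against RefSeq names (99.9% matched).

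Signals became log2(signal + 1), probe sets had to exceed the median mean of 54613 non-control probe sets, and the median over genes, 0.01, was subtracted. The pseudocount understates the change of low genes. A fold with 1 signal below its array's median is a lower limit against that median, which is a chosen floor, since no detection calls were used. Groups came from the genotype labels. With 1 array per group the number of arrays limits the precision, and 2-fold counts are a fixed rule of size. All members were to be named, and wider genes where past 2-fold; other wider genes and markers were named after their values were seen. Members and lists were chosen with earlier results of these data known. The procedure was run on simulated arrays with planted changes, only to check that it returned their size. The simulation held random noise and no variation between cultures, so it does not bear on the calls made here. Python 3.11.15, numpy 2.4.6, pandas 2.3.3, statsmodels 0.14.6 and matplotlib 3.10.9 were used.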

Additional observations from a re-analysis of the deposited data

How the results depend on the processing

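In all, 11 alternatives changed the filter, centring, normalization, pseudocount, probe set choice or floor. The counts of 3 members higher and 5 lower became 7 and 5 at a 1.5-fold threshold and 1 and 2 at a 3-fold threshold, and stayed within 1.5 times otherwise. The members' median of 0.02 was 0.10 with each array's 75th percentile as centre, where the median of all genes was 0.08. GSTA4 was then at -0.98 and no longer past 2-fold. With the mean of all probe sets GPX8 was at 0.80 and PRDX3 at -0.78. AKR1B10 did not enter with a filter at the 75th percentile or without cross-match suffixes, MGST2 did not enter with that filter, and ABCC2, both of whose signals were below the array median, counted as lower without a filter. Of 503 values of single members under alternatives, 494 moved by less than the probe set spread, 9 moved by more, and none of a member past 2-fold changed sign. Among members nearer 0, AKR1C1, GPX4, GSR, GSTM3, GSTM4, MGST1, MGST3, OSGIN1, PRDX2, PRDX6 and TALDO1 were on both sides of 0 across settings. Counts of members above and below 0 therefore depend in part on the processing. SQSTM1 was at 0.24 and ABCC3 at 2.83 without cross-match suffixes. No paired analysis was possible because each group has 1 array. Dim signals limit GPX2 to a lower bound.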
